A study of Mus musculus with 20 samples.

Results

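The contacts described here cross the centromeric boundary of the *Lbx1*/*Fgf8* locus in the mouse. The boundary lies on chromosome 19 of mm9, and the members are all pairs of 5 kb bins with one bin in the centromeric flank (chr19:44440001-45250000, 162 bins) and the other in the locus itself (chr19:45305001-45820000, 103 bins), with the 55 kb boundary gap between them left out. This gave 16686 of the 77028 bin pairs of the captured map (the diagonal counted), of which 16422 had values in the wild-type, *Inv1*, *Inv2* and heterozygous *Inv1* maps and 16218 in both *Dup* maps. The rule used positions only and no measured value. Summed in blocks of 50 kb counted outwards from the gap, the members formed 187 block pairs, 17 flank blocks by 11 locus blocks, out of 861 block pairs in the map. Flank block 1 and locus block 1 touch the gap, and the outermost flank block (10 kb) and the locus block at the *Fgf8* end (15 kb) are shorter than the others.

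Capture Hi-C (cHi-C) was done on fore- and hindlimb buds of E11.5 embryos, and the 20 samples were deposited as 6 merged maps, 1 per genotype. The wild-type is labelled C57BL/6J and the mutants as derived from G4 embryonic stem cells, which are a hybrid of 129 and C57BL/6, so that strain and genotype cannot be told apart in any comparison with the wild-type. Homozygous *Dup* carries a tandem duplication of 541 kb (45251634 to 45792726), homozygous *Inv1* an inversion of 123 kb (45611051 to 45734102) and homozygous *Inv2* an inversion of 460 kb (45332289 to 45792726). Their ends were placed by exact matches of the designed guides, and *Dup* and *Inv2* share the telomeric guide (45792723 to 45792742). The wild-type and each homozygous mutant merged 3 biological replicates and 1 technical replicate. Heterozygous *Inv1* merged 3 biological replicates, and heterozygous *Dup* was 1 library, which was assigned by its title because another of its labels names an inversion. The centromeric flank lies outside every rearrangement, *Fgf8* also lies outside all of them, and *Lbx1* lies inside *Dup* only. Maps of whole limb buds average over all cell types, so contact in a part of the cells and weaker contact in all cells cannot be told apart, and as the maps hold no expression values the tissue was not checked against marker genes.

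Topologically associating domains (TADs) are stretches of chromatin whose parts touch each other more than they touch the neighbouring stretches. They are separated by boundaries at which the cohesin complex, while it extrudes a loop of DNA, is often stopped by the protein CTCF bound in a given orientation. A boundary lowers contact across it without abolishing it, and pairs of boundaries often touch each other at the corner of a domain. In the limb, *Fgf8* encodes a growth factor secreted by the apical ectodermal ridge (AER) that keeps the bud growing out, and *Lbx1* encodes a homeobox factor of the muscle precursors that migrate into the bud. Between them lie *Btrc*, the substrate-binding subunit of a ubiquitin ligase, *Poll*, a DNA repair polymerase, *Dpcd*, which is linked to cilia, and *Fbxw4*, an F-box gene whose introns hold AER enhancers of *Fgf8*. The flank holds *Tlx1*, a homeobox gene needed for the spleen, next to the gap, and *Pax2*, a paired-box gene of the kidney, eye and ear, farther out.

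Sequence from some bins with high contact is shown because boundary contacts are usually anchored at CTCF sites. The core searched was CCA, any 2 bases, AG, any 2 bases and GGC, on both strands of the mm9 genome, and it was found in 179 of the 392 bins of the map (45.7%), so that a match in a given bin is common. Of its 248 matches, 126 had 1 identical core, CCAGAAGAGGGC, and 70 of those lay in the flank, the gap or the locus. The first 100 kb of the flank held 16 matches in 13 of 20 bins (65%), 11 on the plus strand and 5 on the minus strand. The locus held 50 matches in 40 of 103 bins (38.8%), 25 on each strand. The 30 kb at the *Fgf8* end held 5 matches, 2 on the plus and 3 on the minus strand. A match is only a description of the letters, and CTCF binding was not analysed here. Matches from bins that recur below, and 1 from the gap, are printed 5′ to 3′ on the strand of the match, with the core in capitals and 9 bases on each side.
Last flank bin before the gap, plus strand, core at chr19:45249453-45249464: ggcacctttCCACAAGGGGGCgctctccca
Start bin of *Tlx1*, minus strand, core at chr19:45222503-45222514: tcgcagaggCCAGAAGAGGGCatctgattt
Boundary gap, plus strand, core at chr19:45297051-45297062: agcctctgcCCAGCAGGTGGCccaggaagc
Locus bin at 45795001, minus strand, core at chr19:45795993-45796004: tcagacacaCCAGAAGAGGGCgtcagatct
Inside *Fgf8*, plus strand, core at chr19:45811875-45811886: gtgggcaccCCAGCAGATGGCgaggggagc
The *Tlx1* match and the locus match at 45795993 carry the repeated core, and the other printed cores differ from each other. The locus bin at 45795001 also holds matches with the repeated core at 45796888 on the plus strand and at 45799303 on the minus strand, which are not printed.

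The deposited values are balanced contact signal, from which whole numbers of read pairs were recovered for 100% of values within 0.01. The maps held 3350758 read pairs (heterozygous *Dup*) to 13101700 (*Dup*), and the members took 4.596% (wild-type) to 5.54% (*Inv1*) of them. The median member had 14 read pairs in the wild-type and between 7 (heterozygous *Dup*) and 28 (*Dup*) in the mutants, so values are given over blocks, segments and genes, and the heterozygous *Dup* values are the least precise. All intervals below are 95% counting intervals from these read pairs. They cover counting error only. With replicates merged before deposit, no test between genotypes was possible and no p-value is given.

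In the wild-type, contact across the centromeric boundary was below the level of other pairs at the same distance. Observed over expected contact, the mean signal of a group of pairs divided by the mean of all pairs of the map at the same distances, was 0.736 (0.733 to 0.738) for the flank with the locus and 0.782 (0.779 to 0.785) for the locus with the telomeric flank. It was 1.04 within the flank, 0.984 within the locus and 1.10 between the flank and the telomeric flank. Over the 187 block pairs it ranged from 0.289 to 2.89 with a median of 0.784. It was above 1 in 41 block pairs (21.9%), against 42.2% of all block pairs of the map.

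Which end of the locus reached the flank differed by more than counting error. Over the whole flank, contact per distance was lowest in the stretch between *Lbx1* and *Btrc* and higher towards *Fgf8*, although *Fgf8* is the part of the locus that lies farthest from the flank. The *Lbx1* segment had observed over expected contact of 0.634 with the whole flank, the stretch from *Lbx1* to *Btrc* 0.523 (0.520 to 0.527, over the 120 kb next to it) and the *Btrc* gene 0.731 (0.727 to 0.736). The intervening stretch from *Btrc* to *Poll* (0.991), the *Poll* and *Dpcd* segment (0.989) and *Fbxw4* (0.999) did not differ from each other beyond their intervals. The stretch from *Fbxw4* to *Fgf8* lay between 1.187 and 1.213 and the *Fgf8* segment had 1.47 (1.44 to 1.51). Over the 100 kb of flank next to the gap, *Fgf8* was again highest with 2.79 (2.68 to 2.90), before the stretch from *Fbxw4* to *Fgf8* with 1.82, and the stretch from *Lbx1* to *Btrc* was again lowest with 0.619. There was no steady increase between these, since *Lbx1* had 0.813 and *Btrc* 0.977, while the stretch from *Btrc* to *Poll* had 1.62 (1.57 to 1.68), *Poll* and *Dpcd* 1.49 (1.45 to 1.53) and *Fbxw4* 1.36 (1.33 to 1.38), a fall towards *Fgf8* with intervals that did not overlap. Over the rest of the flank *Fgf8* had 1.14, the stretch from *Fbxw4* to *Fgf8* 1.03 and the stretch from *Lbx1* to *Btrc* 0.480. These are levels relative to distance and not absolute contact, which is set first by distance.

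**Figure D1:**
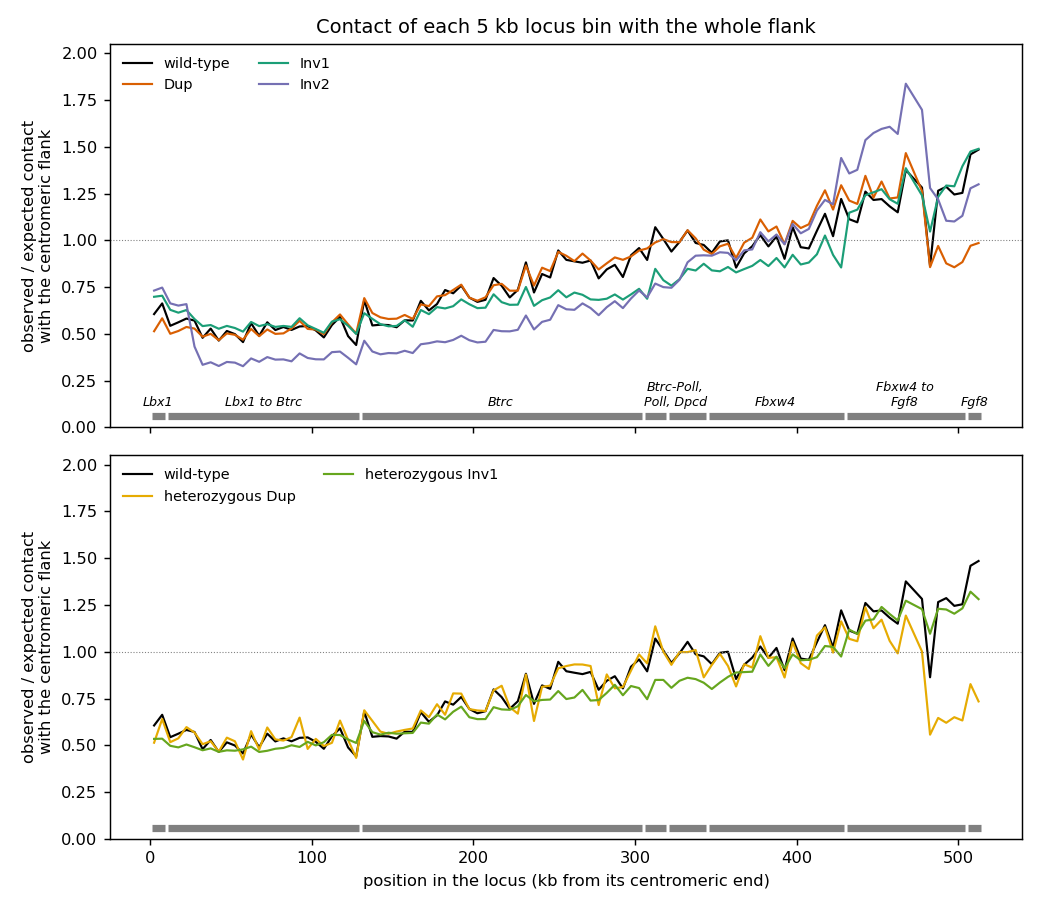
Observed over expected contact (y axis, ratio) of each 5 kb bin of the locus with the whole 810 kb flank, by position from the centromeric end of the locus (x axis, kb). Each line is 1 merged map, the upper panel holds the homozygous maps and the lower panel the heterozygous maps, each with the wild-type, and the grey bars mark the 8 segments; the wild-type line is lowest at 0.441 before *Btrc* and highest at 1.49 in the last *Fgf8* bin.

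Single bins gave the same picture at finer scale. Of the 103 locus bins, the 2 with the highest wild-type contact with the flank were the *Fgf8* bins at 45815001 (1.49, 1.44 to 1.54) and 45810001 (1.46, 1.41 to 1.51), and the bin at 45795001 with the printed match was the fourth (1.29). The lowest was the last bin before *Btrc* at 45430001 (0.441, 0.423 to 0.459). Among members with at least 60 read pairs in the wild-type (1065 of them), 11 of the 12 with the highest observed over expected contact had an *Fgf8* bin, all 12 had a flank bin within 100 kb of the gap and 10 within 50 kb. The minimum of 60 read pairs is passed more easily by members near the gap and, at long distance, by those with high contact. The shares of the 1065 near the gap or with an *Fgf8* bin were not counted, so these counts only describe the list. The highest of all joined the flank bin at 45230001, which holds the end of *Tlx1*, to the *Fgf8* bin at 45815001 over 585 kb. Neither of these bins held a match to the core searched. The pair had 4.40 in the wild-type (144 read pairs), 1.97 in *Dup*, 4.19 in *Inv1*, 3.88 in *Inv2*, 1.51 in heterozygous *Dup* (11 read pairs) and 2.92 in heterozygous *Inv1*. This pair was chosen for its wild-type value, so the wild-type excess is a description. Both *Dup* maps were the lowest at it.

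Seen from the flank, contact with the locus was not graded by distance alone. The block next to the gap had observed over expected contact of 0.980 (0.972 to 0.987) and the following ones 0.899, 0.745, 0.546 and 0.496. The sixth, 250 to 300 kb from the gap, was the lowest at 0.466 (0.457 to 0.474). Beyond it the value increased again to 0.701 in block 9, which holds the start of *Pax2*, and stayed between 0.749 and 0.852 in blocks 10 to 17. In wild-type, *Inv1* and *Inv2* alike the lowest flank block was the sixth, with 0.462 in *Inv1* and 0.395 in *Inv2*. It was also the sixth in *Dup* (0.478), heterozygous *Dup* (0.478) and heterozygous *Inv1* (0.407).

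**Figure D2:**
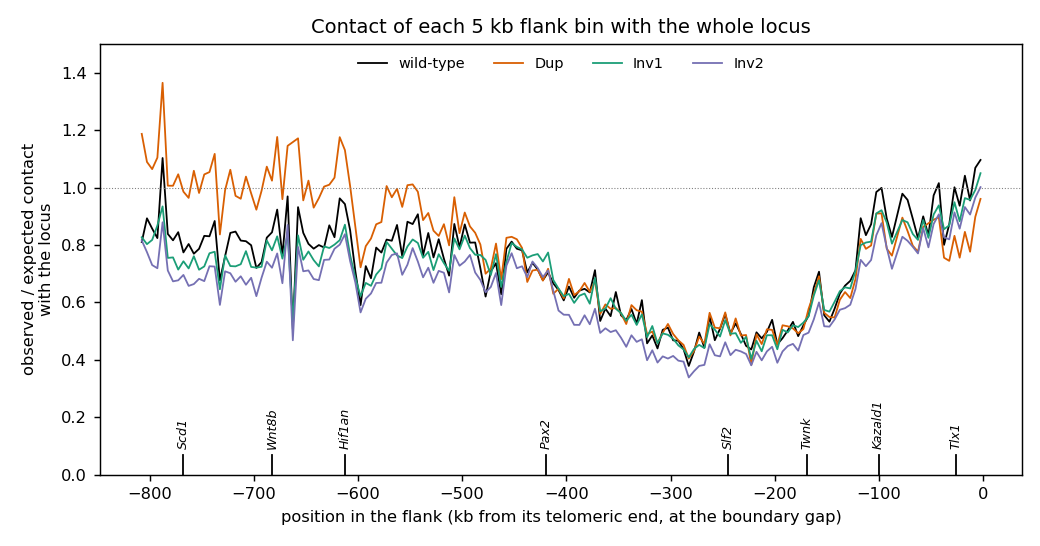
Observed over expected contact (y axis, ratio) of each 5 kb flank bin with the whole 515 kb locus, by position from the telomeric end of the flank (x axis, kb, 0 at the boundary gap). Lines are the wild-type and the 3 homozygous maps and ticks mark the start sites of 8 flank genes. All 4 lines are high near *Tlx1* and *Kazald1*, lowest between *Pax2* and *Slf2* and higher again beyond *Pax2*, where the *Dup* line is above the others. The expected value of *Dup* there includes pairs of the flank with the telomeric flank, which the duplication moves apart. Scaled to the total alone, the ratio of *Dup* to the wild-type lay between 0.968 and 1.11 in flank blocks 10 to 17.

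The start bins of the flank genes followed this course. *Tlx1* (26.3 kb from the gap) had observed over expected contact of 1.00 with the locus in the wild-type (0.971 to 1.03) and *Kazald1*, a secreted protein of the insulin-like growth factor binding type, had 0.985 (0.956 to 1.01). *Hif1an*, the oxygen-sensing hydroxylase that restrains HIF and lies 612.7 kb from the gap, had 0.943 (0.892 to 0.995). These were the highest of the flank genes, and their intervals overlap. The lowest were *Slf2*, a gene of DNA damage signalling (0.492, 0.471 to 0.514), *Sema4g*, a semaphorin (0.503), and the bin at 45080001 that holds the starts of both *Mrpl43*, a mitochondrial ribosome gene, and *Twnk*, the mitochondrial DNA helicase (0.554). *Pax2* had 0.705 (0.660 to 0.753). On the locus side the start bins had 0.663 at *Lbx1*, 0.680 at *Btrc*, 1.05 at *Poll* and *Dpcd*, which share a bin, 1.22 at *Fbxw4* and 1.49 at *Fgf8*. *Lbx1* and *Btrc* did not differ beyond their intervals, and each later start bin was above the one before it.

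The mutants were then set beside the wild-type. In the main scaling both maps of a comparison were brought to a common mean at each distance. The rearranged interval was left out, as in the methods of the study, here by leaving out all bin pairs that touch it. The ratio of a mutant to the wild-type is the mean over a group of members in one divided by that in the other. Beside it stands the ratio that distance alone gives, computed by giving each pair the wild-type mean at its new distance and passed through the same balancing and scaling. All 5 comparisons share the wild-type map, so they are given side by side and no likeness between them is counted as a result. The maps differed in how contact falls with distance: under scaling to the total alone, pairs within the flank up to 100 kb apart had ratios of 0.898 in *Inv1*, 0.963 in *Inv2*, 1.02 in *Dup*, 1.05 in heterozygous *Dup* and 0.891 in heterozygous *Inv1*. Pairs within the flank 400 kb or more apart had 1.18, 1.10, 0.988, 1.09 and 1.10 in the same order. The direction of a ratio taken over the whole rectangle of members therefore depends on the scaling, and the values with the total scaling are given with it. When only pairs with both bins in the rearranged interval were left out, heterozygous *Dup* had 0.988 over all members in place of 1.06.

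Over all members the ratio was 0.951 in *Inv1* (0.947 to 0.956; 1.14 with the total scaling), 0.936 in *Inv2* (0.932 to 0.941; 1.03 with the total scaling) and 1.13 in *Dup* (1.12 to 1.14; 0.962 with the total scaling), so that the direction turned in each. Heterozygous *Dup* had 1.06 (1.07 with the total scaling) and heterozygous *Inv1* 0.928 (1.06 with the total scaling). Distance alone gave 1.00 in *Inv1* and heterozygous *Inv1*, 0.992 in *Inv2*, 1.06 in *Dup* and 0.986 in heterozygous *Dup*. When the scaling was taken only from pairs with both bins in the flank or both telomeric of the locus, which is possible for members up to 600 kb apart, the ratios were 0.979 in *Inv1*, 0.913 in *Inv2*, 0.968 in *Dup*, 1.01 in heterozygous *Dup* and 0.972 in heterozygous *Inv1*. For these nearer members distance alone gave 0.996, 0.810, 0.850, 0.895 and 0.998 in the same order in the joint scaling. None of the 5 whole-rectangle ratios reached 1.2-fold in any of these 3 scalings. What moved more was the distribution over the locus.

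In *Inv2*, which turns round nearly all of the locus between *Lbx1* and *Fgf8*, the flank lost contact with the part of the inverted piece that lies on the *Lbx1* side in the reference order and gained contact with the part on the *Fgf8* side, which the inversion brings next to the boundary. Contact of the stretch from *Fbxw4* to *Fgf8* with the flank rose, with a ratio of 1.28 (1.26 to 1.30; 1.48 with the total scaling), and its observed over expected contact was 1.43 (1.42 to 1.44) against 1.187 to 1.213 in the wild-type. Next to the gap its ratio was 1.41 (1.38 to 1.44), with 2.26 against 1.82. *Fbxw4* had a ratio of 1.16 (1.14 to 1.17), past 1.2-fold only with the total scaling (1.32). Contact of the *Btrc* gene fell, with a ratio of 0.783 (0.777 to 0.790; 0.861 with the total scaling) and observed over expected contact of 0.519 against 0.731. The stretch from *Lbx1* to *Btrc* also fell (0.814, 0.807 to 0.822; 0.856 with the total scaling), to 0.408 against 0.523.

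From distance alone, the ratio in *Inv2* would be 2.58 for the stretch from *Fbxw4* to *Fgf8*, 1.98 for *Fbxw4* and 0.476 for the stretch from *Lbx1* to *Btrc*, each farther from 1 than the observed 1.28, 1.16 and 0.814. For the short stretch from *Btrc* to *Poll* distance gave 1.33, while the observed ratio was 0.843 (0.819 to 0.866; 0.947 with the total scaling). For *Poll* and *Dpcd* it gave 1.47, and the observed ratio was 0.9705 (1.10 with the total scaling). *Btrc*, with 0.783 observed (0.777 to 0.790), lay farther from 1 than the 0.812 from distance. The ratio from distance is that of the joint scaling, so the value of *Btrc* with the total scaling (0.861) is not set against it. Of the segments that the inversion leaves in place, *Fgf8* had 0.932 (1.08 with the total scaling, 0.995 from distance) and *Lbx1* 1.195 (1.17 to 1.22, with 1.24 in the total scaling and 1.01 from distance). *Lbx1* was thus above 1 in both scalings and, in the joint scaling, farther from 1 than distance gives. The same segment had 1.11 in *Inv1* and 0.846 in heterozygous *Inv1* in the joint scaling, where distance gives 1.00. Maps thus differed at *Lbx1* by more than counting error also where its distance is unchanged. Relative to the ratio of the whole rectangle, which removes a scaling common to all members, the stretch from *Fbxw4* to *Fgf8* had 1.37 and *Lbx1* 1.28 (1.43 and 1.198 with the total scaling), and the stretch from *Lbx1* to *Btrc* had 0.870 (0.829 with the total scaling).

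**Figure D3:**
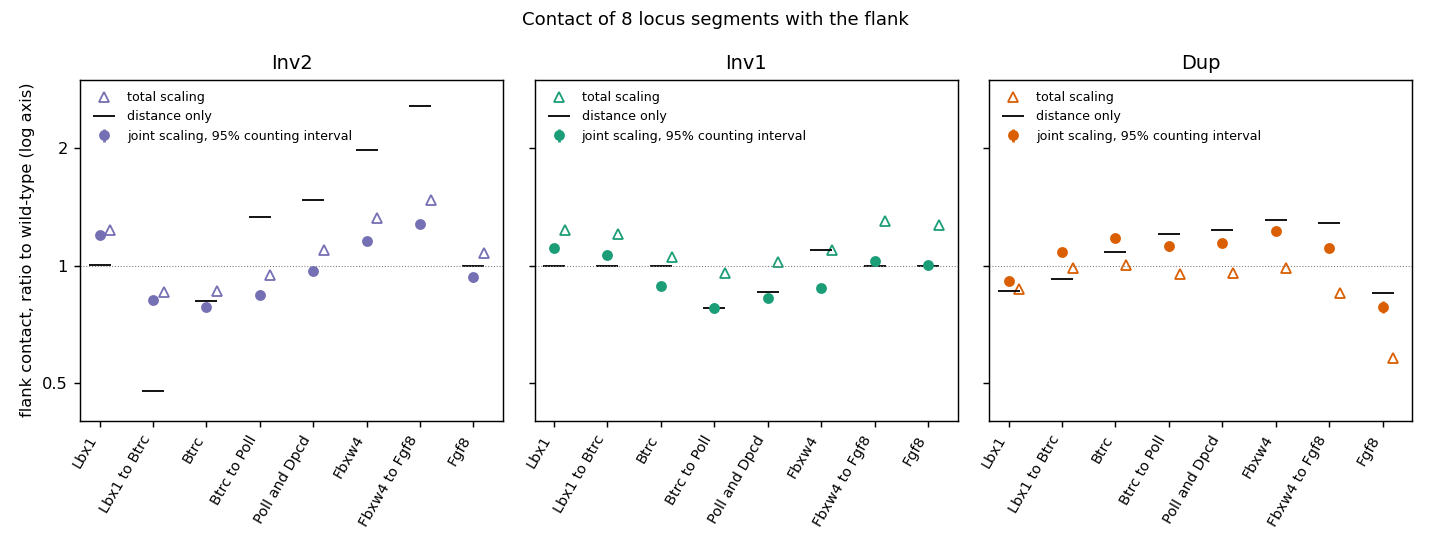
Contact of 8 locus segments with the flank, as a ratio to the wild-type on a log axis (y axis), for *Inv2*, *Inv1* and *Dup* (panels). Filled circles are the joint scaling with 95% counting intervals, open triangles the total scaling and black bars the ratio from distance alone; in *Inv2* the bar for the stretch from *Fbxw4* to *Fgf8* stands at 2.58 and the circle at 1.28.

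By blocks, *Inv2* split the rectangle into columns. Of the 187 block pairs, 23 (12.3%) were at least 1.2-fold higher than in the wild-type, against 12% of all block pairs of the map, and 71 (38%) were at least 1.2-fold lower, against 13.5%. Under the total scaling, 60 (32.1%) were higher against 29.2% of the map, and 22 (11.8%) were lower against 6.5%. The share of higher blocks was thus near that of the map and the share of lower blocks was above it in both scalings. In the joint scaling, locus blocks 2 to 5, which cover most of the stretch from *Lbx1* to *Btrc* and much of *Btrc*, were lower with 16, 15, 14 and 14 of the 17 flank blocks. Their median ratios were 0.739, 0.779, 0.760 and 0.792 (0.826, 0.893, 0.874 and 0.938 with the total scaling). Locus blocks 9 and 10, which cover the start of *Fbxw4* and the stretch to *Fgf8*, were higher with 10 and 10 of 17. Their median ratios were 1.25 and 1.26 (1.42 and 1.49 with the total scaling), against 2.02 and 2.20 from distance. The lowest block pair joined flank block 1 to locus block 4 (0.658, 0.635 to 0.682), and the highest joined flank block 9 to locus block 10 (1.52, 1.41 to 1.64). Locus block 11, with *Fgf8*, was lower with 3 of 17 and higher with none.

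**Figure D4:**
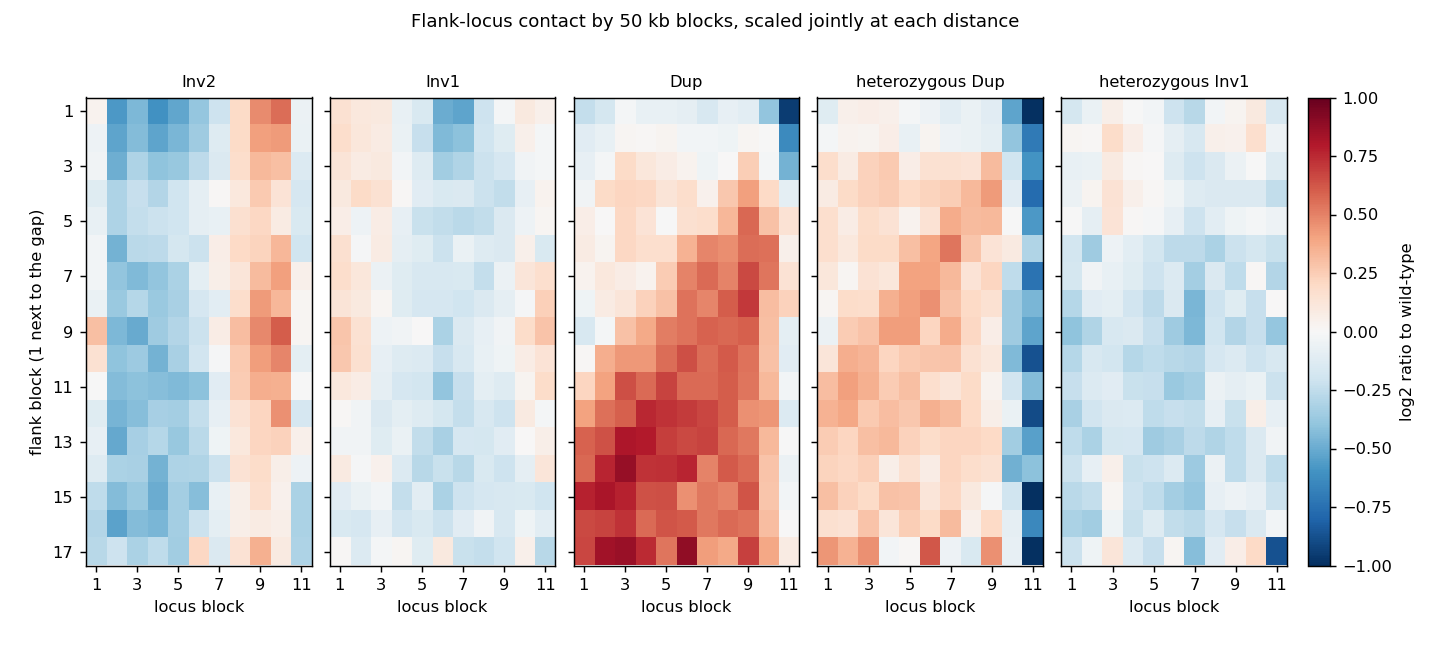
log2 ratio of each mutant map to the wild-type (colour scale, red higher and blue lower, with end colours for ratios beyond 2-fold) for the 187 block pairs, with locus blocks 1 to 11 from the gap to *Fgf8* on the x axis and flank blocks 1 (next to the gap) to 17 on the y axis, in the joint scaling. *Inv2* shows blue columns at locus blocks 2 to 5 and red ones at 9 and 10, *Inv1* shows its lowest block at flank block 1 with locus block 7, *Dup* is higher far from the gap (but with 1 block pair at least 1.2-fold higher under the total scaling), and at locus block 11 *Dup* is at least 1.2-fold lower with flank blocks 1 to 3 and heterozygous *Dup* with 17 of 17.

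*Inv1* turns round the middle boundary region with *Poll*, *Dpcd* and most of *Fbxw4*, and here the lower contact lay around *Poll* and the end of *Btrc*. The stretch from *Btrc* to *Poll* had a ratio of 0.779 (0.757 to 0.801), with observed over expected contact of 0.774 against 0.991 in the wild-type, and *Poll* and *Dpcd* had a ratio of 0.826 (0.810 to 0.842), with 0.822 against 0.989. With the total scaling these 2 ratios were 0.957 and 1.02, so the second changed direction. Distance alone gave 0.779 and 0.853, since both segments lie farther from the flank in the inverted order. Next to the gap the stretch from *Btrc* to *Poll* had 0.645 (0.615 to 0.676; 0.760 with the total scaling) against 0.721 from distance, and this was past 1.2-fold in both scalings. *Fbxw4*, which comes closer in the inverted order, had 0.874 (0.863 to 0.885; 1.10 with the total scaling) against 1.09 from distance.

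Outside the inversion, distance alone gives no change for *Inv1*. The observed ratios of the joint scaling were 1.11 for *Lbx1* and 1.07 for the stretch from *Lbx1* to *Btrc*, 0.886 for *Btrc*, 1.03 for the stretch from *Fbxw4* to *Fgf8* and 1.00 (0.973 to 1.03) for *Fgf8*. Under the total scaling they were 1.23, 1.21, 1.05, 1.30 and 1.27. Relative to the whole rectangle, *Lbx1* stood at 1.17 (1.08 with the total scaling), *Btrc* at 0.931 (0.927) and the stretch from *Btrc* to *Poll* at 0.819 (0.842), so that the dip around the middle boundary had the same direction in both scalings. Of the 187 block pairs, 3 (1.6%) were at least 1.2-fold higher against 4.76% of the map, and 14 (7.49%) at least 1.2-fold lower against 4.07%. Scaled to the total alone, 74 (39.6%) were higher against 48%, and 2 (1.07%) were lower against 4.41%. Of the lower blocks of the joint scaling, 7 lay in locus block 6 and 5 in locus block 7, which holds the centromeric breakpoint. The lowest joined flank block 1 to locus block 7 (0.695, 0.675 to 0.716), against 0.819 from distance, and had 0.818 with the total scaling. Flank blocks 1 and 2 with locus block 6, which lies in *Btrc* outside the inversion, followed at 0.709 and 0.736. Distance gave 1.00 for both, and with the total scaling they had 0.802 and 0.866.

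In *Dup*, where a second copy of the locus from before *Lbx1* to before *Fgf8* is added in tandem, the flank keeps its neighbour and *Fgf8* is moved 541 kb farther away. Contact of the *Fgf8* segment with the flank fell, with a ratio of 0.783 (0.755 to 0.812) and observed over expected contact of 0.978 against 1.47. With the total scaling the ratio was 0.577. Next to the gap it was 0.542 (0.507 to 0.579; 0.445 with the total scaling), with 1.37 against 2.79, and distance alone gave 0.508 there. The *Fgf8* segment lay below the rectangle as a whole in both scalings, at 0.693 and 0.600 of its ratio. The segment of *Lbx1* had 0.913 (0.869 with the total scaling), against 0.862 from distance.

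Inside the duplication both copies are mapped to the same reference bins and cannot be separated, and the direction of the ratio depended on the scaling. *Fbxw4* had 1.22 (1.21 to 1.24) in the joint scaling and 0.987 with the total scaling, and *Btrc* had 1.17 and 1.01. The stretch from *Fbxw4* to *Fgf8*, of which only the part before 45792726 is duplicated, had 1.11 and 0.852. From distance *Fbxw4*, *Btrc* and this stretch would be 1.31, 1.08 and 1.29 in the joint scaling. The ratio of the joint scaling increased with distance from the gap, from 0.894 in flank block 1 to 1.56 in flank block 17, and the ratio from distance alone went from 0.833 to 1.65. At distances beyond the 810 kb length of the flank, the joint scaling of *Dup* rests mainly on pairs of the flank with the telomeric flank. The duplication moves these pairs apart, and their ratio with the total scaling was 0.6997 (0.694 to 0.705). Pairs within the flank 400 kb or more apart had 0.988. The ratio of pairs of the flank with the telomeric flank enters the joint scaling at the longest distances, so the joint ratios far from the gap are not given as gained contact.

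The block counts of *Dup* show the same dependence. In the joint scaling 107 of 187 (57.2%) were at least 1.2-fold higher against 24.6% of the map, and 4 (2.14%) at least 1.2-fold lower against 1.74%. With the total scaling 1 (0.535%) was higher against 2.56%, and 23 (12.3%) were lower against 26.1%. The lowest block pair in the joint scaling was flank block 1 with locus block 11, the *Fgf8* block, at 0.517 (0.483 to 0.554; 0.439 with the total scaling), and flank blocks 2 and 3 with the same locus block followed at 0.642 and 0.720. In the deposited *Dup* map, before balancing to equal bin totals, bins of the duplication had 2 times the total of the bins outside, which is set by the normalization that keeps copy number. In that map, scaled by pairs on the same side of the locus up to 600 kb apart, contact of the flank with the whole locus had a ratio of 1.40 (1.39 to 1.41), against 1.26 from distance with the copies kept.

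The heterozygous maps hold a wild-type and a rearranged chromosome. In heterozygous *Dup* the *Fgf8* segment was again the lowest, with a ratio of 0.604 (0.562 to 0.649; 0.588 with the total scaling) and observed over expected contact of 0.781 against 1.47. Next to the gap it had 0.495 (0.430 to 0.571; 0.452 with the total scaling) against 0.786 from distance with 1 rearranged chromosome. This is lower than distance alone gives by more than counting error. Its interval overlaps that of homozygous *Dup* next to the gap (0.542), in a map of 1 library with 224 read pairs between flank block 1 and locus block 11. Over the whole flank homozygous *Dup* had 0.783 (0.755 to 0.812; 0.577 with the total scaling). Heterozygous *Dup* was thus below the homozygote there by more than counting error, in the joint scaling only. The stretch from *Fbxw4* to *Fgf8* had 0.880 (0.860 to 0.899; 0.875 with the total scaling) against 1.09 from distance, where homozygous *Dup* had 1.11 (0.852 with the total scaling). Locus block 11 was at least 1.2-fold lower with 17 of 17 flank blocks (3 of 17 in homozygous *Dup*), with a median ratio of 0.640 against 1.02 from distance. Its outermost block pair held only 5 read pairs in heterozygous *Dup*. Over all members 48 block pairs (25.7%) were higher against 20.1% of the map, and 24 (12.8%) lower against 6.04%. In the total scaling 42 (22.5%) were higher against 23%, and 25 (13.4%) lower against 5.23%. The lower blocks thus all lay in locus blocks 10 (7) and 11 (17) in the joint scaling.

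Heterozygous *Inv1* differed from the wild-type by less than 1.2-fold in 7 of the 8 segments in the joint scaling and in all 8 with the total scaling. The lowest ratio was that of the stretch from *Btrc* to *Poll*, 0.819 (0.795 to 0.844; 0.942 with the total scaling), where homozygous *Inv1* had 0.779 and distance gave 0.890. *Poll* and *Dpcd* had 0.845 (0.973 with the total scaling) where the homozygote had 0.826. *Lbx1* had 0.846 (0.825 to 0.868; 0.956 with the total scaling), whereas homozygous *Inv1* had 1.11, on the other side of 1. No block pair (0%) was at least 1.2-fold higher against 2.67% of the map, and 34 (18.2%) were at least 1.2-fold lower against 6.27%, of which 10 lay in locus block 7. With the total scaling 8 (4.28%) were higher against 21.5%, and 2 (1.07%) lower against 5.34%.

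Contacts between start sites across the boundary were read from 3 × 3 bins, or fewer at the edge of the locus. *Tlx1* with *Fgf8* had observed over expected contact of 3.27 (3.00 to 3.55) in the wild-type, 3.55 (3.37 to 3.73) in *Inv1*, 2.92 (2.76 to 3.09) in *Inv2* and 2.90 (2.71 to 3.11) in heterozygous *Inv1*. In *Dup* it had 1.67 (1.49 to 1.86) and in heterozygous *Dup* 1.38 (1.04 to 1.84). The intervals of both *Dup* maps lay below those of the other 4 maps, and the ratio to the wild-type was 0.563 in *Dup* (0.469 with the total scaling; 0.478 from distance) and 0.508 in heterozygous *Dup* (0.466 with the total scaling; 0.768 from distance). *Tlx1* with *Btrc* was below 1 in all 6 maps, between 0.470 in *Inv2* and 0.639 in heterozygous *Inv1*.

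*Tlx1* with *Lbx1*, which face each other across the gap, had 1.14 (1.090 to 1.199) in the wild-type, 1.30 in *Inv1* and 1.52 (1.47 to 1.56) in *Inv2*. The value was 0.877 in *Dup*, 0.9002 in heterozygous *Dup* and 0.897 in heterozygous *Inv1*. The intervals of these 3 maps lay below that of the wild-type, and those of *Inv1* and *Inv2* above it. *Tlx1* with *Fbxw4* was highest in *Inv2*, with 1.80 (1.70 to 1.92) against 1.43 (1.29 to 1.59) in the wild-type, a ratio of 1.46 (1.59 with the total scaling) where distance gave 3.29.

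*Pax2* and *Lbx1*, both developmental transcription factor genes, met more often than other pairs at their distance in the wild-type (1.23, 1.11 to 1.36), although *Pax2* with *Btrc* had 0.407. The pair had 1.69 (1.60 to 1.78) in *Inv1* and 1.61 (1.53 to 1.70) in *Inv2*, with ratios of 1.36 and 1.59 (1.66 and 1.82 with the total scaling), while distance alone gave 1.00 and 1.01. It had 0.911 in *Dup*, 0.934 in heterozygous *Dup* and 0.855 (0.777 to 0.940) in heterozygous *Inv1*, with a ratio of 0.698 in the last (0.793 with the total scaling). Homozygous and heterozygous *Inv1* were thus on opposite sides of the wild-type at this pair in both scalings. *Pax2* with *Fgf8* had 1.34 (1.12 to 1.60) in the wild-type, 1.79 in *Inv1*, 1.48 in *Inv2*, 1.04 in *Dup*, 0.863 in heterozygous *Dup* and 1.00 in heterozygous *Inv1*. The wild-type interval overlapped those of *Inv2*, *Dup*, heterozygous *Dup* and heterozygous *Inv1* but not that of *Inv1* (1.63 to 1.97).

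The other flank promoters stood apart from these. *Slf2* with *Lbx1* had 0.296 in the wild-type and between 0.268 (*Dup*) and 0.319 (*Inv1*) in the mutants, and every mutant interval overlapped that of the wild-type (0.255 to 0.343). *Twnk* with *Lbx1* had 0.368 in the wild-type (0.325 to 0.416) and between 0.320 (heterozygous *Dup*) and 0.445 (*Inv2*) in the mutants. *Slf2* with *Fgf8* had 1.22 in the wild-type and *Twnk* with *Fgf8* 1.64, so that from each of the 4 flank genes read this way *Fgf8* had a higher wild-type value than *Lbx1*, by a margin within the intervals for *Pax2* only.

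**Figure D5:**
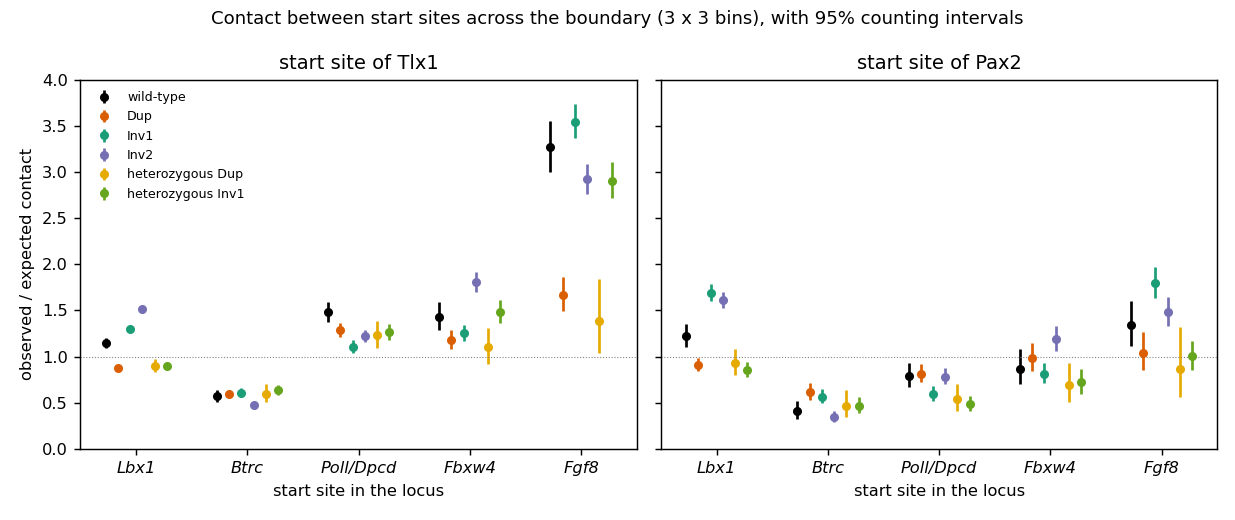
Observed over expected contact (y axis, ratio) between the start sites of *Tlx1* (left) and *Pax2* (right) in the flank and 5 start sites of the locus (x axis), with 95% counting intervals and 1 colour per merged map. *Tlx1* with *Fgf8* lies between 2.90 and 3.55 in 4 maps and at 1.67 and 1.38 in the *Dup* maps, and *Pax2* with *Lbx1* lies at 1.69 in *Inv1* and 0.855 in heterozygous *Inv1*.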

How the data were processed

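The authors mapped the cHi-C reads to mm9 with HiCUP and Bowtie2 2.4.2, merged the replicates of a genotype, binned read pairs at 5 kb and normalized the maps with Juicer tools 1.19.02. The deposited values are contact signal, balanced by KR for the wild-type and inversion maps and by LOIC, which keeps copy number, for the *Dup* maps. The 3 subtraction maps of the authors hold their own comparisons and were not used.

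From the deposited signal, read pairs were recovered by dividing out the bin factors (whole within 0.01). *Dup* maps were balanced to equal bin totals, each mutant was scaled jointly with the wild-type at each distance without the rearranged interval, and both were set to a total of 1000000. Ratios past 1.2-fold were called, with no test. Counting intervals (95%) span 1.96 standard errors on either side of the logarithm of a ratio. The steps were tested on simulated maps. Computations ran in Python 3.11.15 with scipy 1.17.1 and numpy 2.4.6, and plots in matplotlib 3.10.9.

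Alternatives were the total scaling, leaving out fewer pairs in scaling, LOIC as deposited, blocks of 100 kb, a fold of 1.5, medians, and members without 5 bins on each side of the gap. The segment alternatives and the same-side scaling were chosen after seeing the data. The regions, genes and lists were chosen with earlier results of these data known. Genes named were the 6 of the locus, *Slf2*, *Twnk*, *Pax2* and *Tlx1*, and the 2 other flank genes with the highest and the 2 with the lowest wild-type contact with the locus. *Slf2* and *Twnk* are *Fam178a* and *Peo1* in the annotation used (GENCODE on mm9).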

Additional observations from a re-analysis of the deposited data

How the results depend on the processing

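No paired analysis was possible because the replicates of each genotype were merged before deposit, and for the same reason no replicate could be left out. The ratio over all members was 0.962 in *Dup*, 1.14 in *Inv1*, 1.03 in *Inv2*, 1.07 in heterozygous *Dup* and 1.06 in heterozygous *Inv1* with the total scaling. It was 1.03, 0.956, 0.875 and 0.988 in the first 4 when only pairs with both bins rearranged were left out of the scaling, 1.185, 0.941, 0.920 and 1.09 without 5 bins on each side of the gap, and 1.35, 0.932, 0.909, 1.15 and 0.888 as a median. With LOIC as deposited it was 1.68 in *Dup* and 1.35 in heterozygous *Dup*. Block pairs past 1.2-fold in either direction were, beside the share of all 861 of the map, 59.4% against 26.4% in *Dup* (12.8% against 28.7% with the total scaling, 29.9% against 18.4% with fewer pairs left out, 92.0% against 48.8% with LOIC), 9.09% against 8.83% in *Inv1* (40.6% against 52.4% with the total scaling), 50.3% against 25.4% in *Inv2*, 38.5% against 26.1% in heterozygous *Dup* (17.6% against 14.8% with fewer pairs left out, 87.7% against 47.3% with LOIC) and 18.2% against 8.94% in heterozygous *Inv1* (5.35% against 26.8% with the total scaling). At a fold of 1.5 they were 25.7% against 9.99%, 0% against 1.74%, 1.07% against 5.46%, 5.88% against 2.21% and 0.535% against 0.581%. Wild-type observed over expected contact was 0.674 against pairs that are no members, 0.724 without 5 bins on each side and 0.727 as a median. In the segments, *Fbxw4* in *Dup* turned from 1.22 to 0.987 and *Poll* and *Dpcd* in *Inv1* from 0.826 to 1.02 with the total scaling, under which 25 of 40 segment ratios stayed on their side of 1. Apart from the decay values given in the text, the causes were not tested. The heterozygous *Dup* map, with a median of 7 read pairs per member, limits single block pairs most.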
